A study of Mus musculus with 4 samples.

Results

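MiRNAs encoded inside 8 protein-coding genes were followed in mouse bronchoalveolar stem cells (BASCs) with and without depletion of c-Myc. The hosts were Lpp, Egfl7, Pde2a, Wwp2, Ptk2, Mest, Evl and Fam114a1, which carry miR-28, miR-126, miR-139, miR-140, miR-151, miR-335, miR-342 and miR-574. The rule took every mouse assay with one of these numbers in its name, either arm, and left out names ending in an asterisk, which gave 12 of the 517 mouse miRNA assays. The assays were chosen by name, but the hosts were picked with the measured levels and changes of these miRNAs already known. The changes are therefore given as a description, with their spread and without p-values.

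BASCs are progenitor cells at the junction of the bronchioles and the alveoli. They were sorted from lungs of 4 to 6 week old ICR mice as CD31 negative, CD45 negative, CD34 positive and Sca-1 positive cells and plated on irradiated mouse embryonic fibroblasts. The control group and the c-Myc depleted group had 2 samples each. The depleted cells were stable lines selected with puromycin after lentiviral delivery of an shRNA against c-Myc, and each line is therefore a selected population. The methods list a negative control vector, while the study elsewhere calls the comparison cells wild type, so what the controls carried is not settled. Nothing says that the replicates were separate cultures, and the spread between them may be technical. Each assay was read by real-time PCR on a TaqMan low density array, in which the threshold cycle (CT) is the cycle at which the product crosses a fixed level. Abundant RNAs cross it early and have a low CT, and 1 cycle is 1 unit on the log2 scale.

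Many miRNA genes lie within introns of protein-coding genes. Where a miRNA and its host share a strand and a promoter, the hairpin is cut out of the host transcript, and Dicer then releases a duplex of which one arm, named 5p or 3p, is loaded onto an Argonaute protein. Host and miRNA can thus be made together, although many intronic miRNAs also have promoters of their own, and the 2 arms of 1 hairpin can differ in stability. These cards measured no mRNA. The study also profiled mRNA on arrays, which were not analysed here, so no host level is given.

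In the mouse annotation GRCm38.p6, each of the 8 hairpin genes lay inside the span of its host. The strand could be read for 7 pairs, all but Mir151 and Ptk2, and was the same for miRNA and host in each of the 7. The tables used here give gene spans and no exons, so the position in an intron was taken from the established names of the hosts. RefSeq held the mature sequence of 9 of the 12 assays under the current name. None was held under the current name for miR-126-5p, miR-140 and miR-151-3p. The 6 shown are among the 9 and include miR-126-3p, miR-574-3p and miR-139-5p, with the seed, bases 2 to 8 that pair with targets, in capitals.
miR-28 (miR-28a-5p, chr16:24827868-24827889, plus strand): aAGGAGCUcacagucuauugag
miR-126-3p (miR-126a-3p, chr2:26591402-26591423, plus strand): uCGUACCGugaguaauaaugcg
miR-139-5p (chr7:101475382-101475403, plus strand): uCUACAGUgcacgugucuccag
miR-335-3p (chr6:30741354-30741375, plus strand): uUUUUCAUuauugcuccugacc
miR-342-3p (chr12:108658680-108658702, plus strand): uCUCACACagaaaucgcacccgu
miR-574-3p (chr5:64970364-64970385, plus strand): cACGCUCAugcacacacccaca

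The seeds of the 9 assays with a sequence all differed, so these miRNAs share a kind of genomic position and not a seed. Of the 9, only miR-28 shared its seed with another mature mouse miRNA of the RefSeq table, miR-708-5p. The assay for miR-708 gave a CT of 33.5 in depleted replicate 2 and stood at the ceiling of 35 in the other samples.

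All 12 assays were on card A, 1 of the 2 array cards, with 1 well each. Of these, 10 had a CT below 35, the ceiling set in the methods, in at least 1 sample, and 8 had one in all 4 samples. The assays mmu-miR-139-3p and mmu-miR-342-5p gave no CT in any sample, while the opposite arm of each hairpin was well detected. The plot of CT by sample shows all values.

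**Figure D1:**
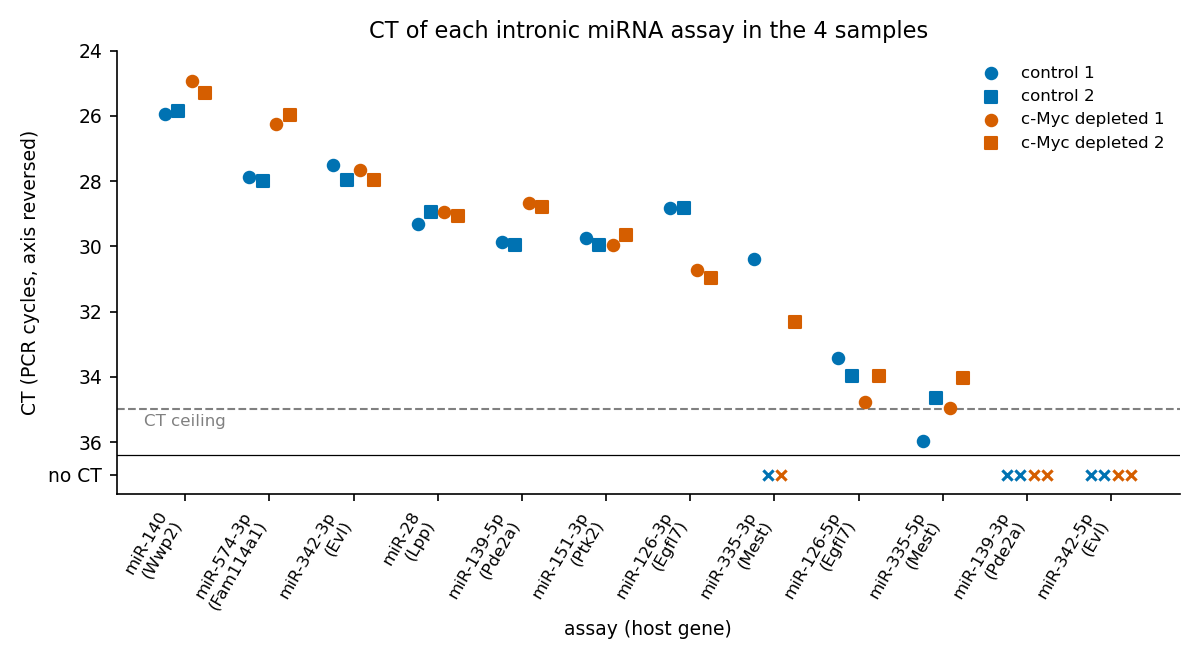
CT (PCR cycles, axis reversed so that more RNA is higher) of the 12 assays, ordered by mean CT, with the host gene in brackets; each symbol is 1 well in 1 sample, and crosses mark wells with no CT. For miR-574-3p, miR-139-5p and miR-140 both depleted samples lie above both controls, and for miR-126-3p they lie about 2 cycles below them.

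Levels were taken relative to U6 RNA of the same card, as in the methods, so that ΔCT is the CT minus the mean CT of 4 U6 wells. The mean U6 CT on card A was 18.9 and 19.1 in control and 18.9 and 18.8 in depleted samples, a difference between groups of 0.15 cycles. Other control RNAs on card A had 1 well each. Their mean CT, control minus depleted, differed by 1.07 cycles for snoRNA135, 1.14 for U87, 0.36 for Y1 and -0.17 for snoRNA202. A positive value here is an earlier CT after depletion. Subtracting the depleted group's mean ΔCT from that of the controls gives the log2 change, so that a positive value means more RNA after depletion. Over the 130 card A miRNAs with a CT below 35 in all samples the median log2 change was 0.41, and over all 189 such miRNAs of both cards it was 0.09. A log2 change near 0.41 is therefore that of the middle miRNA on the card, and with each card centred on its own median CT that value became -0.10.

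Among the 8 miRNAs measured in all samples, 3 were higher and 5 lower in the depleted cells. Their median log2 change was -0.07, and 0.07 without control replicate 2. The 3 higher ones, miR-574-3p, miR-139-5p and miR-140, had groups that did not overlap, as had 44.6% of the 130 card A miRNAs in that direction. Of the 5 lower ones, miR-126-3p and miR-126-5p had groups that did not overlap, as had 13.8% of the card A miRNAs. The other 3, miR-28, miR-151-3p and miR-342-3p, overlapped between the groups.

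The count of calls was taken from a limma fit across the 80 mouse miRNAs whose lowest ΔCT was below 10. In it 2 of the 6 intronic assays tested, miR-574-3p and miR-139-5p, had a Benjamini-Hochberg adjusted p below 0.05 and were higher, as were 25% of the tested miRNAs. At that threshold 1 of the 6, miR-126-3p, was lower, as were 7.5%. These shares pool both cards. Of the 64 tested on card A, 20 were called higher and 1, miR-126-3p itself, lower. Of the 16 tested on card B, 0 were called higher and 5 lower. Nothing is read from these counts, since the hosts were picked with the changes known. Without depleted replicate 1, and likewise without depleted replicate 2, none of the 12 kept its call in limma. In each case 1 of the 12 had an unadjusted p below 0.05. Leaving out any 1 sample, the log2 change itself ranged from -2.31 to -2.05 for miR-126-3p, from 1.53 to 1.81 for miR-574-3p and from 0.95 to 1.11 for miR-139-5p. With median centring, quantile normalization or centring within each card only miR-126-3p was called, and with the replicate block or the analysis of variance per miRNA none of the 3 was, with 3 of the 12 at an unadjusted p below 0.05 in each. Only 6 of the 12 passed the ΔCT limit. mmu-miR-126-3p passed it through the controls alone and mmu-miR-139-5p through the depleted samples alone, so that a difference in that direction was built into their passing, and mmu-miR-28 passed through a single control sample.

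**Figure D2:**
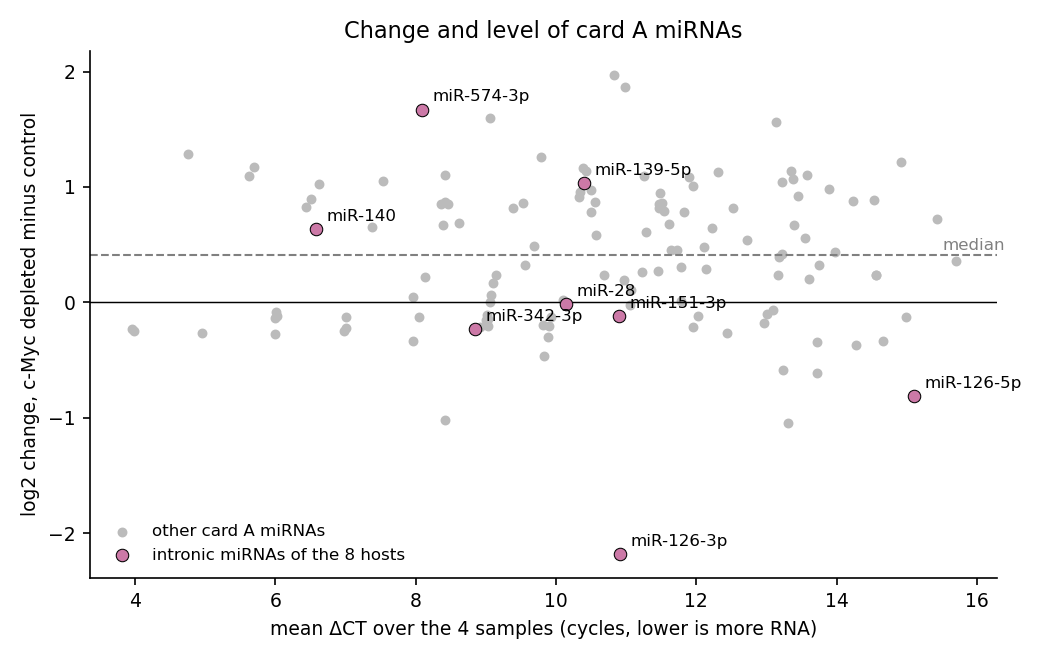
Log2 change (c-Myc depleted minus control, U6 of the same card) against the mean ΔCT of the 4 samples for the 130 card A miRNAs with a CT below 35 in all samples; each point is 1 miRNA and the dashed line is their median, 0.41. miR-126-3p lies lowest of all points at -2.18, miR-574-3p is at position 3 from the top at 1.67, and miR-28, miR-151-3p and miR-342-3p lie between -0.02 and -0.23.

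The largest difference was that of miR-126-3p, the mature miRNA of Egfl7. Egfl7 is a secreted protein of endothelial cells, and miR-126 is best known from endothelium, where it supports vessel integrity. The CT of mmu-miR-126-3p was 28.81 and 28.83 in control cells, against 30.73 and 30.97 after depletion. Relative to U6 these were ΔCT values of 9.92 and 9.72, against 11.9 and 12.1. Both depleted samples thus lay more than 1 cycle beyond both controls, and the ranges did not overlap. The mean ΔCT was 9.82 ± 0.141 (SD, n = 2) in control and 12.0 ± 0.181 (SD, n = 2) in depleted BASCs, a log2 change of -2.18 (standard error 0.17) and a level 4.53-fold lower. Its change was the lowest of the 130 card A miRNAs with a CT below 35 in all samples, and the lowest of these outside the 12 assays was -1.04. On card B, miR-801, miR-706 and miR-696, also below 35 in all samples, had changes of -2.725, -2.70 and -2.65 relative to U6 of that card. U6 differed between the groups by 0.72 cycles on card B and by 0.15 on card A, so these changes are not ranked against that of miR-126-3p. That of miR-696 came mainly from depleted replicate 2, with ΔCT values of 6.99 and 7.28 in control cells and 7.64 and 11.93 after depletion. On card A, miR-200a stood at the ceiling in both depleted samples, with a change of -2.75.

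mmu-miR-126-5p, the other arm of the same hairpin, was close to the detection limit. Its CT was 33.42 and 33.97 in control cells, against 34.76 and 33.96 after depletion, so that before the U6 subtraction the replicate 2 samples were alike. On the ΔCT scale the values were 14.5 and 14.9 against 15.9 and 15.1, a log2 change of -0.82 with a standard error of 0.42 from its own 4 samples. It was -0.43 without depleted replicate 1 and -1.20 without depleted replicate 2. The 3p arm exceeded the 5p arm by 4.61 and 5.14 cycles in control cells and by 4.03 and 2.995 cycles after depletion. This gap, which does not depend on the reference RNA, differed between the groups by -1.37 (depleted minus control) without overlap, and by -0.85 without depleted replicate 2. With a ceiling of 32 the 5p arm was not measurable.

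Both arms of miR-126 are endothelial markers, and the sort had removed CD31 positive cells. No other endothelial marker was on the list used here, so the endothelial content of the samples was not measured independently of these assays, and its part in the result was not tested. In such bulk samples, fewer cells of a type and less RNA per cell cannot be told apart. Of 5 blood cell miRNAs, miR-150 alone was below the ceiling in every sample, at a CT of 32.96 to 34.86. Their summed log2 level relative to U6 was -11.7 and -14.2 without and -16.0 and -13.0 with depletion, so that the groups overlapped. Wells at the ceiling were left out of these sums, and that of depleted replicate 1 was miR-150 alone.

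The CT values of mmu-miR-126-3p and mmu-miR-139-5p in both depleted samples carried 8 decimals, as did 24 values of 13 assays in the whole table, while all other values have at most 6. Subtracting U6 from these 4 values left ΔCT values with at most 5 decimals, 11.8722 and 12.1275 for miR-126-3p and 9.80183 and 9.9638 for miR-139-5p. The ΔCT of 9.80183 in depleted replicate 1 was also that of miR-34a in the same sample, equal within 0.00001. Among values below the ceiling, no other pair involving the 12 assays was equal within that limit. No other of the 12 assays had such values. The control ΔCT values of these 2 assays were also short, 9.91908 and 9.71908 for miR-126-3p and 10.9737 and 10.8578 for miR-139-5p. Their control CT values had 5 or 6 decimals. A ΔCT of 5 decimals occurred in other assays too, such as 10.07828 for miR-28 in depleted replicate 1. Whether the CT values of miR-126-3p and miR-139-5p were read from the instrument or set from a ΔCT is not given in the sources used here. That holds for both groups, and the differences of the 2 miRNAs rest on these values.

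miR-574-3p comes from the hairpin inside Fam114a1. Its CT, listed as mmu-miR-574-3p, was 27.88 and 27.98 without and 26.26 and 25.96 with depletion of c-Myc. Every depleted value was thus more than 1 cycle earlier than every control value. Its mean ΔCT went from 8.93 ± 0.0795 (SD, n = 2) to 7.26 ± 0.195 (SD, n = 2), a log2 change of 1.67 (standard error 0.16), a 3.18-fold higher level. By change it held position 3 of the 130 card A miRNAs, and its position among the 263 detected mouse miRNAs moved from 43 to 22 by mean ΔCT.

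miR-139-5p lies in Pde2a, which encodes a phosphodiesterase that breaks down cyclic nucleotides and is stimulated by cGMP. mmu-miR-139-5p has been studied mainly as a miRNA that is low in tumours. Its CT was 29.87 and 29.96 in control cells, against 28.66 and 28.80 after depletion, and the last 2 are among the values with 8 decimals. Its mean ΔCT was 10.9 ± 0.082 (SD, n = 2) in control and 9.88 ± 0.115 (SD, n = 2) in depleted BASCs, a log2 change of 1.03 (standard error 0.14) and a 2.05-fold higher level. The groups did not overlap, and the difference was larger than the spread of either. Relative to the median of card A the change was 0.63.

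miR-140, from Wwp2, a gene for an E3 ubiquitin ligase, is known for its high level in cartilage and its role in skeletal growth. It had the lowest ΔCT of the 12 assays in both groups, and its place among the 263 detected mouse miRNAs was 15 in both. The CT of mmu-miR-140 was 25.93 and 25.86 without and 24.94 and 25.29 with depletion. Its ΔCT was 7.04 and 6.75 against 6.08 and 6.45, so that the groups did not overlap. The log2 change was 0.63 (standard error 0.21), only 0.23 above the median of card A.

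Relative to U6 of the card, the remaining 3 well measured miRNAs had similar levels in control and c-Myc depleted cells. Lpp encodes a LIM domain protein of focal adhesions, and the CT of its mmu-miR-28 was 29.32 and 28.95 without and 28.94 and 29.06 with depletion. The ΔCT of control replicate 1 was 10.4, that of control replicate 2 was 9.84, and the depleted samples lay between them, with a log2 change of -0.02 (standard error 0.25). The change was -0.31 without control replicate 1 and 0.27 without control replicate 2. The 2 controls were thus the farthest apart of all samples of miR-28, and no direction was resolved.

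The other strand of the miR-28 hairpin, miR-28*, was measured on card B in 2 wells per sample, and it serves here only for comparison. Its mean CT was 29.38 and 29.74 in control cells, against 29.38 and 29.78 after depletion, so that both strands had a similar CT. Relative to U6 the difference between the strands, miR-28 minus miR-28*, was 0.73 higher after depletion, but before the U6 subtraction it was 0.16. U6 on card B differed between the groups by 0.72 cycles and on card A by 0.15.

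Ptk2 encodes focal adhesion kinase. The CT of mmu-miR-151-3p, its miRNA, was 29.73 and 29.95 without and 29.97 and 29.66 with depletion. The 4 values lay within the same narrow range in both groups, and the log2 change was -0.12 with a standard error of 0.15 from its own samples. Without depleted replicate 1 the change was 0.03.

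Evl encodes an actin regulator of the Ena/VASP family, and the CT of mmu-miR-342-3p was 27.50 and 27.97 without and 27.67 and 27.97 with depletion. The replicate 2 samples were alike, and the log2 change was -0.23 (standard error 0.19), and -0.07 without depleted replicate 2. Relative to the card A median, the changes of miR-28, miR-151-3p and miR-342-3p were -0.42, -0.53 and -0.64.

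Mest is an imprinted gene transcribed from the paternal copy, and both arms of its miR-335 were on the card. mmu-miR-335-3p had a CT of 30.37 in control replicate 1 and 32.31 in depleted replicate 2 and none in control replicate 2 and depleted replicate 1. Each group thus had 1 sample with a clear signal and 1 with no CT. Of the 133 card A miRNAs with a CT below 32 in at least 1 sample, 12, or 9.02%, were split in this way within a group. mmu-miR-335-5p had CT values of 35.96 and 34.65 without and 34.96 and 34.04 with depletion, at the limit of detection in both groups. No change can be given for either arm.

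By mean ΔCT the order in control BASCs was miR-140, miR-342-3p, miR-574-3p, miR-126-3p, miR-28, miR-151-3p, miR-139-5p and miR-126-5p. Each assay has its own efficiency, so the order is one of assay signals and only approximately one of RNA levels. The samples of neighbours did not overlap, except those of miR-126-3p and miR-28, although the means of miR-342-3p and miR-574-3p, 8.74 and 8.93, and of miR-151-3p and miR-139-5p, 10.84 and 10.92, lay close together. In depleted BASCs miR-574-3p had moved to the second place and miR-139-5p to the fourth, while miR-126-3p had gone from the fourth to the seventh. In that group no neighbours overlapped.

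The direction of the changes was compared with 5 other references, as shown in the plot of change by reference. The log2 change ranged from -2.68 to -2.18 for miR-126-3p, from 1.17 to 1.67 for miR-574-3p, from 0.53 to 1.03 for miR-139-5p and from 0.13 to 0.63 for miR-140. All 8 miRNAs kept their sign with each of the references. Apart from quantile normalization, a change of reference shifts every card A miRNA by the same amount. A kept sign then depends only on that shift and the starting change. For miR-126-5p it ranged from -1.32 to -0.82. For miR-28 the range was -0.52 to -0.02, for miR-151-3p -0.62 to -0.12 and for miR-342-3p -0.74 to -0.23. U6 of the same card gave the highest value for each of these 8 miRNAs.

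**Figure D3:**
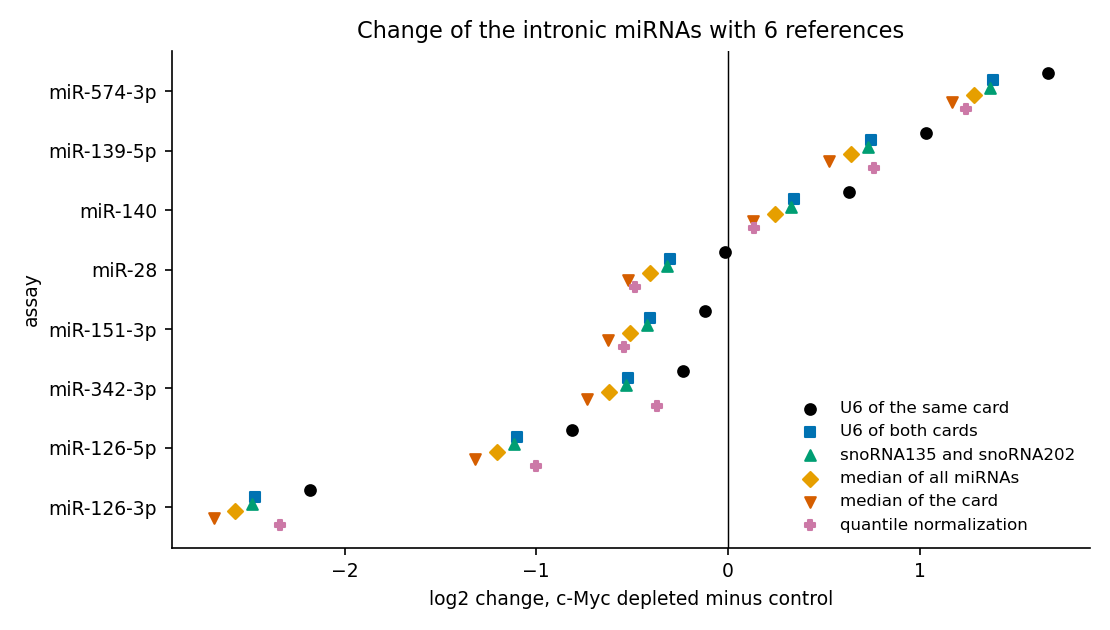
Log2 change (c-Myc depleted minus control) of the 8 intronic miRNAs with a CT below 35 in all samples, with U6 of the same card and 5 other references; each symbol is the difference between means of 2 samples. miR-574-3p stays between 1.17 and 1.67 and miR-126-3p between -2.68 and -2.18, while the value of miR-140 goes down to 0.13.

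The miRNAs outside the 12 assays whose centred ΔCT values lay nearest over the 4 samples, by root mean square difference, were listed for each of the 8. Those nearest to miR-574-3p were miR-193b, miR-130a and miR-34c, at 0.06, 0.14 and 0.20 cycles, and the depleted CT values of miR-130a and miR-34c are among those with 8 decimals. miR-139-5p lay nearest to miR-106b, miR-20a and miR-503, at 0.07 to 0.08 cycles, and the depleted CT values of miR-106b and miR-20a are also among those with 8 decimals. miR-140 lay nearest to miR-148a and miR-221, both at 0.03 cycles. miR-28 lay nearest to miR-93 at 0.05 cycles, miR-151-3p to let-7a* at 0.06 and miR-342-3p to miR-182 at 0.06. For miR-126-3p no close profile was found, as the nearest, miR-801 and miR-706 on card B, were 0.29 and 0.34 cycles away and had 1 and 2 depleted wells with no CT. The nearest to miR-126-5p was miR-218, at 0.17 cycles.

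Other miRNAs inside protein-coding genes were taken from the annotation, as assays of 1 miRNA gene within the span of a protein-coding gene on the same strand. There were 138 such assays besides the 12, and 38 of those on card A had a CT below 35 in all samples. Of these 38, 29 were higher and 9 lower after depletion, with a median log2 change of 0.36, against 0.41 over all 130 card A miRNAs. In limma 3 of the 16 tested on card A had an adjusted p below 0.05, all higher, against 20 higher of all 64 card A miRNAs tested. Groups that did not overlap were found for 16 of the 38 in the higher and 1 in the lower direction, against 44.6% and 13.8% of all 130.

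The sequences upstream of the hosts were searched for CACGTG, the E-box letters bound by c-Myc with Max, which read the same on both strands. Of the 17 promoter windows of 7 hosts (250 bases before to 50 after a start, GRCm38.p6), 1 held the letters, that of Wwp2, the host of miR-140. Among all 32851 windows 7.15% did. A match is a description of the letters and not a binding site.

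The labelled cell type was compared with miRNAs typical of epithelium and of mesenchyme. The study identified its cultured BASCs by protein staining, with the alveolar type II marker SP-C and the Clara cell marker CCA seen in most colonies. The miRNA lists are a different measure and do not test that staining. Of 8 epithelial miRNAs, only miR-200c was below the ceiling in all samples, at a CT of 32.99 to 33.99, and miR-203 and miR-205 had none in any sample. Their summed log2 level relative to U6 was -11.2 and -12.7 in control cells and -13.1 and -14.5 after depletion, without overlap. Wells at the ceiling were left out of the sums, so that each sample summed different assays. The sum of depleted replicate 2 was that of miR-200c alone. The ΔCT of miR-200c overlapped between the groups, at 14.1 and 14.9 in control cells and 15.1 and 14.5 after depletion. Of 5 mesenchymal miRNAs, 4 were below 35 in all samples, miR-199a-3p, miR-214, miR-143 and miR-145, at 24.78 to 27.01. The summed level of the list was -4.86 and -4.66 in control cells and -4.32 and -4.38 after depletion, without overlap. The median log2 change of the 4 was 0.43, close to the card A median of 0.41, and miR-199a-3p and miR-214 were higher without overlap, at 0.82 and 1.02. The groups of miR-143 and miR-145 overlapped, with log2 changes of 0.04 and -0.13. The fifth, miR-199a-5p, had a CT in 1 sample of each group and entered the sum only there. Of 4 muscle miRNAs only miR-206 was below 35 in all samples, at 30.89 to 34.29, and its ΔCT was 14.42 and 14.44 in control cells, against 14.36 and 11.83 after depletion. Its log2 change of 1.34 came down to 0.07 without depleted replicate 2. The cells had first been plated on embryonic fibroblasts. The study's results place them on collagen-coated dishes once established, while its methods say that they were passaged onto embryonic fibroblasts. Which holds for these samples is not settled. The part of feeder RNA or of other cell types in the levels of the 12 assays was not tested.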

How the data were processed

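The authors deposited 1 table of threshold cycles (CT) for 768 wells on 2 cards in 4 samples, before normalization. The authors exported CT values with RQ manager from an ABI PRISM instrument, and the submitters' processing notes name Partek 6.4 for later steps. A CT above 35 or missing was set to 35, replicate wells were averaged, and ΔCT was taken against the mean of the 4 U6 wells on the card of the assay. Changes of all mouse miRNAs with a lowest ΔCT below 10 were fitted with limma 3.58.1 in R 4.3.3 on minus ΔCT, with Benjamini-Hochberg adjustment over the 80 miRNAs. Values were tabulated with Python 3.11.15, numpy 2.4.6 and pandas 2.3.3. The fit was tested on simulated data.

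The miRNAs and lists were chosen with earlier results of these data known. Named were all 12 assays, the star strand, assays of the same seed, the nearest profiles of each and control RNAs. The miRNAs named as cell type markers came from lists, and miR-34a, miR-667, miR-696, miR-199a-5p and miR-491 were named after their values were seen. The alternatives were other references, ceilings, filters and tests, a replicate block and leaving out each sample, and those added after the data were seen were centring within each card, card A alone and crossed replicate numbers. The precision is limited by 2 samples per group.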

Additional observations from a re-analysis of the deposited data

How the results depend on the processing

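The number of mouse miRNAs called in limma was 26, of which 3 were among the 12 intronic assays. For all miRNAs and for the intronic assays, respectively, it was 3 and 1 with median centring, 4 and 1 with quantile normalization, 1 and 1 with centring within each card, 2 and 0 with no filter on ΔCT (67 and 3 at an unadjusted p below 0.05), 17 and 1 with ΔCT below 10 in all samples, and 3 and 0 with the variance analysis per miRNA of the methods (27 and 3 unadjusted). It was 14 with U6 of both cards and 12 with a CT below 35 in all samples. Leaving out 1 sample gave from 0 to 25 and from 0 to 3, with no intronic assay called without either depleted sample. The labels share replicate numbers but do not say that same-numbered samples are pairs, and they were not taken as pairs. Same-numbered samples did not deviate together, with r = -0.44 over the 80 miRNAs and -0.07 over the 130 card A miRNAs. With 2 samples per group this r cannot settle whether they were paired. With the replicate block 0 and 0 were called (26 and 3 unadjusted), and with the numbers crossed 33 and 4. The median log2 change of the 8 intronic miRNAs was -0.07, and -0.46 with median centring, -0.37 with snoRNA135 and snoRNA202, -0.35 with U6 of both cards, -0.43 with quantile normalization and -0.57 with centring within each card. The arm difference of miR-126 was -1.37, and -2.03 with a ceiling of 32, where the 5p arm is at the ceiling, and -0.85 to -1.88 leaving out 1 sample. The strand difference of miR-28 was 0.73, and 0.16 with median centring and with U6 of both cards, 0.20 with the snoRNAs, 0.067 with quantile normalization and -0.215 with centring within each card. It was 0.41 to 1.05 leaving out 1 sample. The causes were not tested. The number of intronic assays called was also 3 with the snoRNAs, U6 of both cards, no CT ceiling, a ceiling of 32, a variance trend and card A alone.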

Other observations

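Of the 12 card A miRNAs with a CT below 32 in one sample of a group and no CT in the other, 3 had a CT in control replicate 1 and depleted replicate 2 alone, which were miR-335-3p, miR-199a-5p and miR-491. The CT of miR-199a-5p was 28.55 and 30.04 in these samples. A single assay, miR-667, had the opposite pattern, 2 had a CT in control replicate 1 alone, 3 lacked one in control replicate 1 alone, 1 in control replicate 2 alone and 2 in depleted replicate 2 alone. These assays had 1 well per sample, so a failed well and a missing RNA cannot be told apart.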
